A study of Mus musculus with 12 samples.

Results

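The constitutive proteasome subunit genes were described in RNA from CD45-positive cells of tumour-bearing mouse livers. They were taken as the gene entries whose symbol is Psma, Psmb, Psmc, Psmd or Psme followed by a number, without the immunoproteasome subunits Psmb8, Psmb9 and Psmb10. The rule gave 40 genes of the 24319 entries in the table, and all 40 carry current mouse symbols. They comprised 8 genes of the alpha rings of the core particle, 8 of its beta rings, 9 of the base of the regulatory particle, 8 of its lid, 3 chaperones that help assemble the base, and 4 activators. Of the 40, 39 passed the filter for testing, which asked for 1 FPKM or more in 3 or more of the 12 libraries. FPKM is the fragment count of a gene scaled by its length and by the size of the library, so levels of different genes can be set side by side per length. The remaining member, Psmb11, encodes the beta subunit of the thymus and was listed at 0 in all 12 libraries.

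The cells came from livers of C57BL/6 mice that had all received human c-Myc and N-ras genes by hydrodynamic transfection on day 0, a fast injection of a large volume that carries DNA into liver cells. Control mice then got PBS on days 14, 16, 18, 20 and 22 and 200 µg of IgG on days 17, 19 and 21. The polyIC group received polyIC, a synthetic double-stranded RNA that mimics a virus, at 4 mg/kg into the peritoneum on the PBS days, together with the IgG. Mice of the antiPDL1 group were given the PBS and, in place of IgG, 200 µg of antibody against PD-L1, which engages the inhibitory receptor PD-1 on T cells. The combination group received both agents. Livers were taken on day 24 according to the treatment protocol, while the time point label reads day 22. CD45-positive cells were bound by a PE-coupled CD45 antibody and PE beads, and each of the 4 groups had 3 libraries, numbered 0, 1 and 2. The labels give no age, do not say which cells took up the transfected genes, and do not say whether the 3 libraries of a group came from separate mice, so p-values measure only the spread between these samples, which may be technical.

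The proteasome is the main protease of the cytosol and nucleus and degrades proteins that carry chains of ubiquitin. Its core particle is a barrel of alpha and beta rings, with the proteolytic sites inside the beta rings, and alternative activators can cap its ends in place of the regulatory particle, which recognises, unfolds and feeds in ubiquitinated proteins. Interferon-gamma can bring an exchange of the catalytic beta subunits for immunoproteasome forms, and it raises the activator PA28. The peptides that result can be loaded on MHC class I.

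A few facts of the libraries touch every result below. Ptprc, the gene of CD45, stood at 239.5 ± 29.1 FPKM in control (SD, n = 3), 389 in polyIC, 311 in antiPDL1 and 449 ± 59.4 in combination, so the sorted cell type was present throughout. Its level was not the same in all groups. The libraries lay at 206 to 261 FPKM in control, 371 to 416 in polyIC, 268 to 340 in antiPDL1 and 381 to 487 in combination. The part of this difference in the subunit levels was not tested. FPKM totals ranged from 476111 to 677535, and the largest entry, Mir6236, took 4.97% to 20.6% of them. Read counts were not used here; relative depth, read from the steps between low values, ranged from 0.485 to 1. By the mean correlation of log2(FPKM + 1) over the tested genes, antiPDL1 replicate 2 was closer to the control libraries (0.952) than to its own group (0.928). Control replicate 2 was closer to polyIC (0.935) and antiPDL1 (0.932) than to the other control libraries (0.922), and antiPDL1 replicate 0 was closer to combination (0.961) and polyIC (0.946) than to its own group (0.942). Results that rest on antiPDL1 replicate 2 or control replicate 2 are given with and without them. In these bulk samples, a different share of a cell type and a different amount of RNA per cell cannot be told apart.

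Promoter sequences are shown for 6 members that the results turn on: the neighbouring activator genes Psme1 and Psme2, the catalytic subunits Psmb5 and Psmb6, and the lid genes Psmd14 and Psmd13. They come from RefSeq on GRCm38.p6, whereas the expression values were made on mm9, and run 5′ to 3′ along the gene from 250 bases before its start to 25 after it. Capitals mark matches, on either strand, to 5 short motifs: TGACNNNGC (antioxidant response element core), the core of the interferon-stimulated response element (a pair of TTTC repeats with any 2 bases between them), CCGGAAG (ETS site), TTCNNNGAA (STAT site) and CCAAT (NF-Y site). Psme1 lies at chr14:55578244-55578518 on the plus strand for the stretch printed, Psme2 at chr14:55591077-55591351 on the minus strand (the first of 2 starts in the table), Psmb5 at chr14:54617971-54618245 on the minus strand, Psmb6 at chr11:70525107-70525381 on the plus strand, Psmd14 at chr2:61711444-61711718 on the plus strand and Psmd13 at chr7:140882144-140882418 on the plus strand.
Psme1: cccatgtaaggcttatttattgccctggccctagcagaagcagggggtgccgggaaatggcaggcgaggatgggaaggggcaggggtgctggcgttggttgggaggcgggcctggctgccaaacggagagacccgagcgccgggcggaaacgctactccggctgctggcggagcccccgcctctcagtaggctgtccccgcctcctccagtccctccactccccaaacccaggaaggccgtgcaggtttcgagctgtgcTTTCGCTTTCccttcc
Psme2: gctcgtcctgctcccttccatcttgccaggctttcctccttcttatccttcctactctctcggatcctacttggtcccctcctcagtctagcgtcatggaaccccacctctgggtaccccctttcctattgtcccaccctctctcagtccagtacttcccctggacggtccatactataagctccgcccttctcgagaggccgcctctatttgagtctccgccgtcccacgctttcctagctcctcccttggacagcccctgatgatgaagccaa
Psmb5: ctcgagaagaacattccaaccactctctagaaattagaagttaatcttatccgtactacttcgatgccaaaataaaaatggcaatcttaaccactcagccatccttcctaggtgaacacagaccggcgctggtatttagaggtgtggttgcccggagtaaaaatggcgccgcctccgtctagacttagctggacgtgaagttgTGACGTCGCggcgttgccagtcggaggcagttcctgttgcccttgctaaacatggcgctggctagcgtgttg
Psmb6: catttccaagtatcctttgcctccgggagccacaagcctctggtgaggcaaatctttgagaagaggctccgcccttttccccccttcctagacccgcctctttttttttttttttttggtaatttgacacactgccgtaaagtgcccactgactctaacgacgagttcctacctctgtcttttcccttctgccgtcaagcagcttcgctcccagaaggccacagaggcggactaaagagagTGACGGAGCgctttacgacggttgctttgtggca
Psmd14: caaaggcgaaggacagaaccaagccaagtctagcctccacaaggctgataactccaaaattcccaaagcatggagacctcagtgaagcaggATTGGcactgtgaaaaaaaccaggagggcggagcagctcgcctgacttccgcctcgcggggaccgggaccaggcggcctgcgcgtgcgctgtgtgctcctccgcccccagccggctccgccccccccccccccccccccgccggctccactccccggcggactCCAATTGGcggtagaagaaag
Psmd13: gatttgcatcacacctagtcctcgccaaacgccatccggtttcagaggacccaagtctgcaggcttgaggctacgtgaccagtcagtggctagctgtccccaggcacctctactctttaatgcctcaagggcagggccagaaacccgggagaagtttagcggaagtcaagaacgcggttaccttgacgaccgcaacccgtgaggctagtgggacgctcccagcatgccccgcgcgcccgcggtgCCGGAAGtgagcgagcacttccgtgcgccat

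Psme1 held the interferon-stimulated response element core from base 10 after its start, Psmb5 held TGACNNNGC from base -47 and Psmb6 from base -9, and Psmd13 held CCGGAAG from base -6. Psmd14 held CCAAT at base 5 and, on the other strand, at bases -159 and 8, where the last match overlaps the one at base 5. The Psme2 window held none of the 5 motifs, which says only that these letters are not in this window. Of the 40 members, 33 had a RefSeq window of 300 bases (250 before and 50 after the start), 36 windows in all, since 3 members had more than 1. CCGGAAG was in 13 of the 36 (36.1%), and 8.86% of all 32851 windows held it. The interferon-stimulated response element core was in 4 (11.1%, those of Psmd4, Psmd9, Psmb3 and Psme1) against 3.44% of all windows, TGACNNNGC in 6 (16.7%) against 12.4%, CCAAT in 13 (36.1%) against 37.4%, and TTCNNNGAA in 1 (2.78%, Psmd2) against 8.30%. A match is a description of the letters and does not show that a factor binds there.

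In control libraries the members ranged widely in level. Psme1, the alpha subunit of PA28, was the most abundant at 387 ± 61.6 FPKM, followed by the core genes Psmb4 (245 ± 38.3), Psma7 (242 ± 64.6), Psma6 (236 ± 65.4) and Psmb1 (223 ± 55.3), which did not differ from each other by more than their SDs. Most regulatory genes were lower: the 9 base genes lay between 43.1 (Psmd1, a scaffold of the base) and 85.4 FPKM (Psmd4, a ubiquitin receptor), and the 8 lid genes between 27.8 (Psmd11) and 99.8 (Psmd8). Psma3 and Psma5 stood apart from the other alpha genes of the general particle at 21.7 ± 5.21 and 23.3 ± 5.13 FPKM. The lowest tested members were Psme4, the PA200 activator, at 17.7 ± 2.61 FPKM, the base chaperone Psmd9 at 10.1 ± 1.49, and Psma8, an alpha subunit of male germ cells, at 1.97 ± 0.819.

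In the combination group 17 of the 39 tested members rose against control and none fell (limma, adjusted p under 0.05 by Benjamini-Hochberg over the 11978 genes tested). Over all tested genes 13.1% rose and 16.3% fell in this comparison (16.7% and 13.8% after quantile normalization, where 20 members rose and none fell). The members' median log2 change was 0.66, where all tested genes had a median of 0.05, and 37 of the 39 changes were positive. In 32 of the 39 every combination library lay above every control library, which held for 25.6% of all tested genes. The 7 whose libraries overlapped were Psma6, Psma8, Psmc1, Psmd3, Psmd5, Psmd9 and Psme4. The heat map of all 39 tested members shows this by library.

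**Figure D1:**
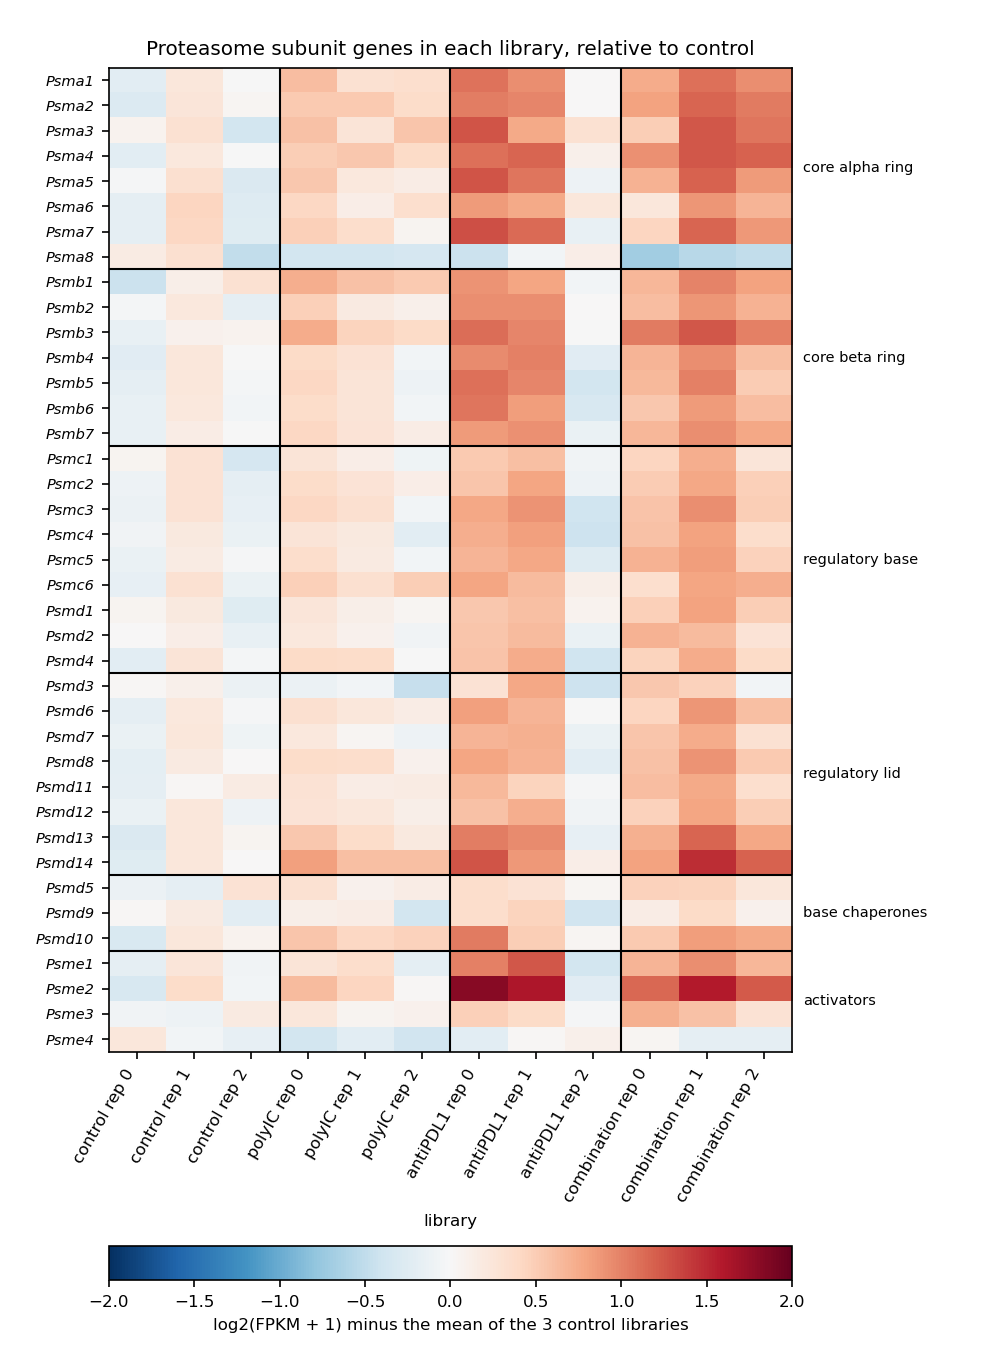
Log2(FPKM + 1) of the 39 tested members (vertical axis, by class) in each of the 12 libraries (horizontal axis), less the mean of the 3 control libraries; red is above and blue below control. Replicates 0 and 1 of antiPDL1 and the 3 combination libraries are red over most members, antiPDL1 replicate 2 is near the control level, and Psma8 and Psme4 do not follow the other members.

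The number of calls was sensitive to single libraries while the sign was not: all 17 kept a positive change in each of the 12 runs that left out 1 library. Without control replicate 0, 1 and 2 in turn, 3, 9 and 9 members were higher, where 5.85%, 8.04% and 13.9% of all tested genes were, and without control replicate 2 Psma8 was also called lower. Without polyIC replicate 0, 1 and 2 it was 8, 7 and 8 members, against at most 11.5% of all tested genes. Without combination replicate 0, 1 and 2 it was 8, 2 and 6, against 10.0%, 5.19% and 8.72%. The members' share was near that of all genes without combination replicate 1 (2 of 39). It was not far above that of all genes without control replicate 0 (3 of 39). Without antiPDL1 replicate 0 and 1, 18 and 15 members were higher, against 13.6% and 12.8%. Without antiPDL1 replicate 2, whose spread enters the shared variance, 33 members were called, 32 higher and Psma8 lower, where 19.8% of all tested genes were higher. With control replicate 2 left out as well, a choice made after seeing the data, 31 were higher and 1 lower, against 20.9% of all tested genes higher. Only Psma4 and Psmb3 were called in all 12 runs, and Psmd14 in 11.

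The alpha rings form the gates of the core and the surface to which activators dock. Of the 8 alpha genes 4 rose in combination, Psma4, Psma2, Psma3 and Psma1, with a median log2 change of 0.92 over the class. Psma4 stood at 76.0, 102 and 88.1 FPKM in control, 124, 129 and 115 in polyIC, 189, 199 and 94.7 in antiPDL1 and 168, 209.9 and 200.2 in combination (replicates 0, 1 and 2). Its mean went from 88.8 ± 13.2 to 193 ± 22.0 FPKM, a log2 change of 1.11 ± 0.26 (SE; adjusted p = 0.0099, limma), with no overlap between the groups. Psma2 was at 134, 191 and 166 FPKM in control, 234, 234 and 209 in polyIC, 331, 319.9 and 163 in antiPDL1 and 283, 366 and 335 in combination, a rise of 1.00 ± 0.26 in combination (adjusted p = 0.0163, limma). Psma3 was lower in level, at 22.4, 26.6 and 16.2 FPKM in control, 32.4, 25.8 and 31.9 in polyIC, 52.6, 36.8 and 26.7 in antiPDL1 and 30.3, 51.8 and 46.1 in combination, and rose by 0.93 ± 0.27 (adjusted p = 0.0259, limma). In all 3 genes antiPDL1 replicate 2 sat at or near the control range, and replicates 0 and 1 of that group reached the combination range. Psma5 lay just outside the threshold, with a log2 change of 0.91 and an adjusted p of 0.050, and Psmb2 (0.047) just inside.

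The beta subunits with a proteolytic site are Psmb6, Psmb7 and Psmb5. Psmb6 cuts after acidic residues, Psmb7 after basic ones and Psmb5 after large hydrophobic ones. Of these, Psmb7 rose and Psmb5 and Psmb6 did not pass the threshold. Psmb7 was at 128, 157 and 141 FPKM in control, 188, 171 and 157 in polyIC, 256, 266 and 129 in antiPDL1 and 226, 270.3 and 243 in combination, and its rise in combination was 0.79 ± 0.25 on the log2 scale (adjusted p = 0.0352, limma). Psmb5 was at 52.4, 69.6 and 57.7 FPKM in control, 79.3, 71.3 and 55.5 in polyIC, 129, 118 and 45.8 in antiPDL1 and 94.3, 120.2 and 85.2 in combination (log2 change 0.72 ± 0.33, adjusted p = 0.122, limma). Psmb6 was at 107, 137 and 114 FPKM in control, 154, 142 and 114 in polyIC, 250.2, 212 and 95.2 in antiPDL1 and 174, 214 and 183 in combination (0.67 ± 0.30, adjusted p = 0.115, limma). Although neither passed, every combination library lay above every control library in both. Whether the 3 catalytic genes differed from each other in their change was not tested, and their changes lie within 1 SE of each other.

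Psmb1, Psmb2, Psmb3 and Psmb4 are beta subunits without a proteolytic site, and the first 3 rose in combination. Psmb3 had the tightest control values of the beta genes, 50.3, 59.1 and 58.5 FPKM, with 93.9, 76.6 and 72.9 in polyIC, 122, 110.3 and 55.3 in antiPDL1 and 115, 133 and 114 in combination, a rise of 1.10 ± 0.26 (adjusted p = 0.0105, limma). Psmb1 was at 162, 238 and 270.1 FPKM in control, 361, 329 and 313 in polyIC, 408, 377 and 209.8 in antiPDL1 and 348, 436 and 383 in combination, a rise of 0.82 ± 0.27 (adjusted p = 0.0386, limma). Both were higher in every polyIC and every combination library than in any control library. Over the 7 tested beta genes 4 rose, with a median log2 change of 0.74 and a range of 0.67 to 1.10.

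**Figure D2:**
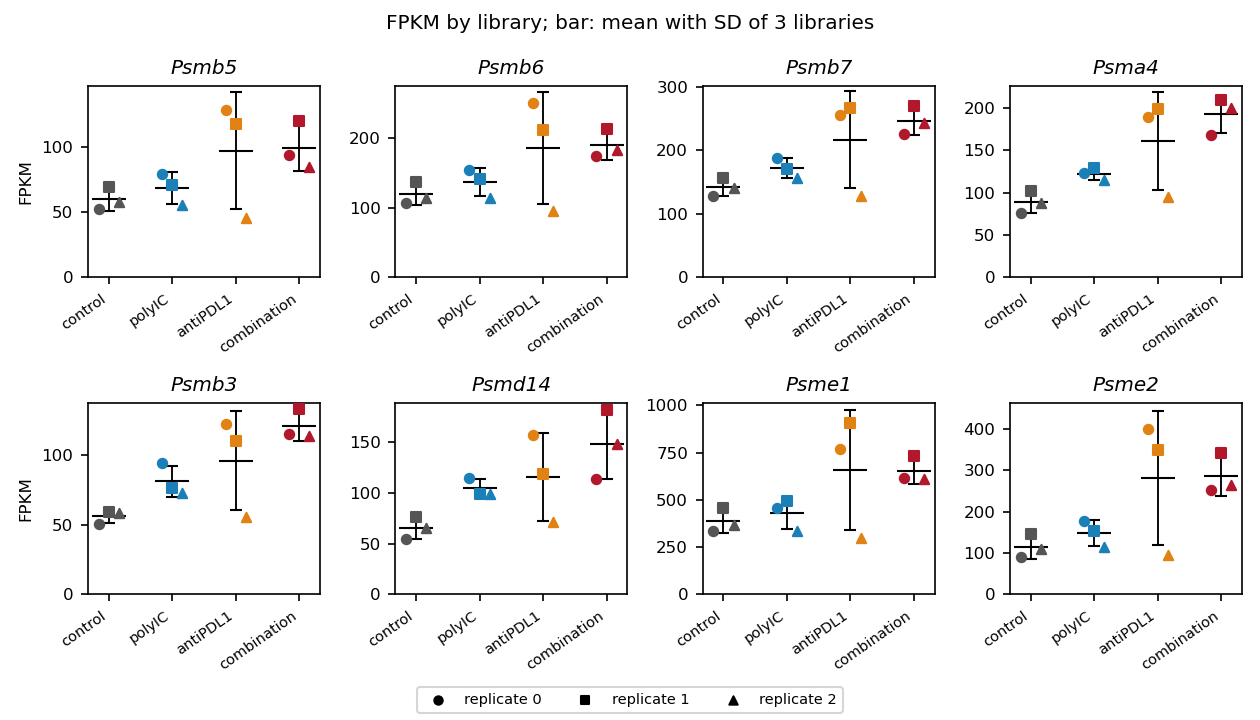
FPKM (vertical axis, from 0) of 8 members in each library, with symbols for replicates 0, 1 and 2 and bars for the mean and SD of 3 libraries. In each panel the lowest antiPDL1 point is replicate 2 and the combination points lie above all control points.

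In the regulatory particle 6 of 17 genes rose in combination, 2 of 9 in the base and 4 of 8 in the lid, with class medians of 0.59 and 0.61 on the log2 scale. Psmd14, also called Rpn11, is the metalloprotease of the lid that cleaves the ubiquitin chain from a substrate before it is degraded. It stood at 55.0, 76.5 and 65.0 FPKM in control, 115, 99.2 and 99.4 in polyIC, 157, 119 and 71.2 in antiPDL1 and 114, 182 and 148 in combination. The log2 change in combination was 1.15 ± 0.27 (adjusted p = 0.0109, limma), more than that of any other tested gene of the regulatory particle. Psmd13, a structural lid subunit, was at 59.6, 85.1 and 75.9 FPKM in control, 106, 93.9 and 83.9 in polyIC, 149, 141 and 65.1 in antiPDL1 and 119.6, 165 and 125 in combination, and rose by 0.88 ± 0.29 (adjusted p = 0.0397, limma). Another structural lid subunit, Psmd6, was at 51.6, 67.4 and 57.1 FPKM in control, 73.4, 68.5 and 64.6 in polyIC, 104, 93.7 and 57.9 in antiPDL1 and 78.9, 108 and 89.2 in combination, and rose by 0.64 ± 0.22 (adjusted p = 0.0473, limma). Psmd11, the other lid gene past the threshold, rose by 0.57. The smallest change of the particle was in the lid gene Psmd3, 0.32 ± 0.27, whose control and combination libraries overlapped.

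The base holds 6 ATPases, Psmc1 to Psmc6, that pull the substrate open and thread it into the core. Psmc6 was the only ATPase gene past the threshold: it was at 51.3, 72.0 and 52.5 FPKM in control, 81.3, 72.5 and 81.7 in polyIC, 100.3, 90.3 and 62.8 in antiPDL1 and 73.6, 101 and 96.3 in combination (0.62 ± 0.21, adjusted p = 0.0456, limma). Psmd1, the scaffold to which ubiquitin receptors bind, was at 44.4, 48.9 and 36.0 FPKM in control, 50.6, 46.5 and 44.0 in polyIC, 62.9, 65.2 and 45.0 in antiPDL1 and 59.9, 75.1 and 60.6 in combination (a rise of 0.59 ± 0.18, adjusted p = 0.0320, limma). The 9 base genes had changes in a narrow band, from 0.47 to 0.66, so those past and short of the threshold differed little in size. Among the chaperones of base assembly, which leave the finished particle, Psmd10 (gankyrin) rose. It was at 24.5, 36.0 and 32.0 FPKM in control, 45.2, 41.1 and 42.5 in polyIC, 63.5, 43.1 and 31.3 in antiPDL1 and 44.1, 55.1 and 52.4 in combination (0.71 ± 0.23, adjusted p = 0.0410, limma). Psmd5 (0.38) and Psmd9 (0.21) did not pass.

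The activators did not move as a block. Psme1 and Psme2 encode the alpha and beta subunits of PA28, a ring that opens the core without ATP or ubiquitin and is known for its induction by interferon-gamma. Psme2 was at 89.6, 146 and 109 FPKM in control, 176, 152 and 114 in polyIC, 400.3, 348 and 96.1 in antiPDL1 and 251, 342 and 264 in combination. Its log2 change of 1.32 ± 0.45 in combination (adjusted p = 0.0446, limma; a 2.49-fold ratio of mean FPKM) was the largest of any tested member in that comparison and had a larger SE than any. Psme1 was at 337, 456 and 367 FPKM in control, 458, 492 and 334 in polyIC, 769.6, 908 and 297 in antiPDL1 and 616, 732 and 611 in combination, and its change of 0.76 ± 0.36 did not pass (adjusted p = 0.126, limma). In both genes all combination libraries lay above all control libraries, and antiPDL1 replicate 2 lay within or below the control range. Psme2b, a near-identical copy of Psme2 that the rule leaves out, was listed at 4.39 to 9.55 FPKM; how reads shared between such copies were assigned is not given in the sources used here, so the values of Psme2 carry that uncertainty.

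The remaining activators are nuclear. Psme3, the PA28-gamma subunit, was at 45.8, 44.7 and 54.8 FPKM in control, 56.8, 50.3 and 51.2 in polyIC, 67.3, 63.4 and 47.3 in antiPDL1 and 79.4, 73.3 and 59.1 in combination, and it rose by 0.53 ± 0.17 in combination (adjusted p = 0.0414, limma). Psme4 was at 20.6, 16.9 and 15.6 FPKM in control, 13.4, 15.1 and 13.2 in polyIC, 15.0, 17.9 and 18.9 in antiPDL1 and 18.2, 15.4 and 15.4 in combination. Its changes were -0.32 ± 0.15 in polyIC, -0.03 ± 0.15 in antiPDL1 and -0.10 ± 0.15 in combination, none past the threshold, and the latter 2 turn positive without control replicate 0 (0.079 and 0.0049). Psma8 was the other member with a negative change in combination, -0.58 ± 0.22 (adjusted p = 0.0621, limma), at 2.25, 2.61 and 1.04 FPKM in control and 0.774, 0.963 and 1.04 in combination. At these levels the added 1 FPKM understates its change.

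Markers of cell types also differed between the groups, though not all of them followed the subunit genes by library. In combination against control all 8 tested cytotoxic lymphocyte markers, all 5 tested T cell markers and 8 of 9 cell cycle genes rose, while all 5 B cell markers, 3 of 4 Kupffer cell markers, 6 of 8 hepatocyte genes, all 5 sinusoidal endothelial genes and 2 of 3 erythroid genes fell, and 3 of 5 neutrophil markers rose. The summed FPKM of the 9 cell cycle genes was 151 to 181 in control, 281 to 420.3 in polyIC and 429 to 554 in combination. It was 425, 509 and 180.0 in antiPDL1 replicates 0, 1 and 2. Summed over all 40 members, FPKM was 3144 to 4202 in control, 3886 to 4813 in polyIC and 5518 to 7031 in combination. The members summed to 6945, 6821 and 3277 in antiPDL1 replicates 0, 1 and 2. In polyIC the cell cycle sums lay above the control range, while the member sums overlapped it. The 8 hepatocyte genes summed to 852 to 2645 in control, 1094 to 1568 in polyIC, 151 to 260.0 in combination, and 557, 264 and 1529 in the antiPDL1 replicates. The cytotoxic markers summed to 335 to 953 in control, 4419 to 5491 in polyIC and 4946 to 5872 in combination. In antiPDL1 replicates 0, 1 and 2 they summed to 2995, 1578 and 857. The T cell markers summed to 186 to 557 in control, 784 to 1177 in polyIC and 1341 to 1611 in combination. Their sums were 998, 441 and 423 in the antiPDL1 replicates, so replicates 1 and 2 lay within the control range. Kupffer cell markers summed to 1089 to 5479.7 in control, 294 to 1272 in polyIC and 31.7 to 162 in combination. They came to 519, 1925 and 4009 in antiPDL1 replicates 0, 1 and 2, with replicates 1 and 2 within the control range. The part of these cell types in the subunit levels was not tested.

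With the PD-L1 antibody alone none of the 39 members passed the adjusted threshold, where 0.267% of all tested genes did. The median change of the members was 0.51 (0.305 after quantile normalization) and that of all tested genes 0.01, and 14 members had an unadjusted p under 0.05, against 17.0% of all tested genes. Psma4 came nearest to the threshold (0.79 ± 0.26, adjusted p = 0.211, limma), and Psme2 had the largest change (1.07 ± 0.45, adjusted p = 0.272). Only Psma3 had every antiPDL1 library above every control library, as 4.61% of all tested genes did. The single comparisons share the 3 control libraries with the combination comparison, so their values are set side by side and are not independent of each other.

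The antibody comparison turned on replicate 2. In antiPDL1 replicates 0 and 1 the typical level of the 14 general core genes (the antilog of their mean log2 value) was 224 and 207 FPKM and in replicate 2 it was 103, where the control libraries were at 95.5, 127 and 102. Without replicate 2, 32 members were higher (11.9% of all tested genes), among them 14 of 15 tested core genes and 15 of 17 regulatory genes, and the median change was 0.78. Without replicates 0 and 1 in turn the median was 0.33 and 0.36 and no member passed. With control replicate 2 also left out 31 members were higher, against 14.4% of all tested genes. A comparison without replicate 2 rests on 2 antibody libraries and assumes that they vary like those of the other groups.

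**Figure D3:**
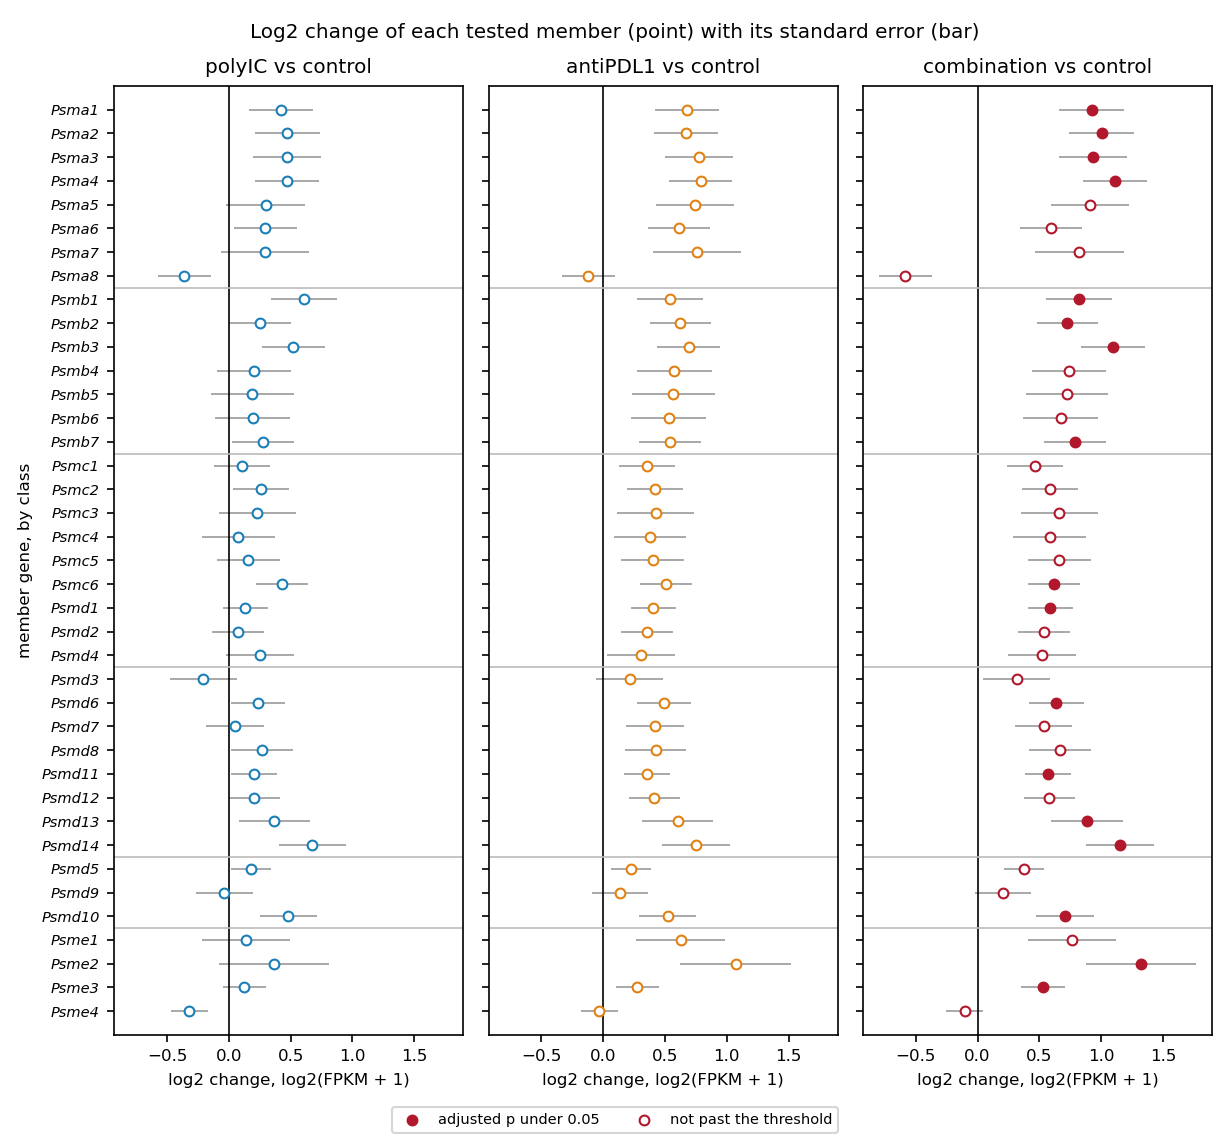
Log2 change in log2(FPKM + 1) against control (horizontal axis) of each tested member (vertical axis, by class) in polyIC, antiPDL1 and combination, as points with bars for 1 standard error; filled points passed an adjusted p of 0.05. The changes are smallest in polyIC and largest in combination for most members, and filled points occur in the combination panel alone.

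Of the treatments, polyIC alone had the smallest median change of the subunit genes against control. The polyIC and antiPDL1 groups were not tested against each other. None of the 39 members passed, against 3.63% of all tested genes. The median change was 0.23 beside -0.01 over all tested genes. An unadjusted p under 0.05 was found for 2 members, Psmd14 and Psmb1, against 22.2% of all tested genes. Psmd14 was nearest to the threshold (0.68 ± 0.27, adjusted p = 0.178, limma) and Psmb1 next to it in size (0.61 ± 0.27, adjusted p = 0.209). All polyIC libraries lay above all control libraries in 9 members, as in 16.2% of all tested genes. These were Psma1, Psma2, Psma4, Psmb1, Psmb3, Psmb7, Psmc6, Psmd10 and Psmd14. For antiPDL1 the same held for 1 member, against 4.61% of all tested genes. In Psme4 all polyIC libraries lay below all control libraries, and the share of all tested genes that did so is not given here. Psme1 (0.14 ± 0.36) and Psme2 (0.36 ± 0.45) overlapped with control. Psma8 passed as lower without control replicate 2, where 15.6% of all tested genes passed, and Psmb3 as higher without antiPDL1 replicate 2, where 7.66% did, 1 call in each case.

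Set against polyIC alone, the combination had higher values in most members without any that passed the adjusted threshold, where 1.24% of all tested genes passed. The median change was 0.47 beside 0.06 over all tested genes. Every combination library lay above every polyIC library in 26 of 39 members, against 13.3% of all tested genes, and 5 members (Psma4, Psmb3, Psmd1, Psmd2 and Psme3) had an unadjusted p under 0.05, against 13.6%. Psmd1 came nearest (0.46 ± 0.18, adjusted p = 0.284, limma). With only the groups compared in the fit 5 members were higher, where 11.3% of all tested genes passed and 2.68% were higher. Without antiPDL1 replicate 2, 3 members were higher, where 4.14% passed and 1.15% were higher. Against antiPDL1 alone no member passed, adjusted (0.125% of all tested genes) or unadjusted (14.4%), and the members' median was 0.17 beside 0.04. The nearest was Psma8 (-0.46 ± 0.22, adjusted p = 0.356, limma), with every combination library below every antiPDL1 library. Its values are near the filter of 1 FPKM, and the share of all tested genes with such an order is not given here. Without antiPDL1 replicate 2 the median of that comparison has the opposite sign, -0.09.

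The interaction contrast asked whether the change with polyIC was the same with and without the antibody. No member passed it, adjusted (0.0167% of all tested genes) or unadjusted (2.40%), and the smallest adjusted p, that of Psma1, was 0.999 (log2 value -0.18). The median was -0.04 for the members and 0.03 for all tested genes. Without antiPDL1 replicate 2 the members' median was -0.41, again with no member past the threshold. These tests do not show that the agents act alike or independently on these genes.

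Core and regulatory genes moved together, with a larger median change in the core, though the changes of single genes overlapped between the 2 classes. The median log2 change in combination was 0.82 over the 15 tested core genes, the same with Psma8 left out, and 0.59 over the 17 regulatory genes; 8 of the 15 and 6 of the 17 rose. The corresponding medians were 0.62 and 0.41 in antiPDL1 and 0.30 and 0.21 in polyIC, and 1.00 and 0.70 in antiPDL1 without replicate 2. In each library the mean log2(FPKM + 1) of the 17 regulatory genes was subtracted from that of the 14 general core genes, and the antilog of the difference was taken as their ratio. The ratio was 1.77, 1.87 and 1.85 in control, 2.07, 1.96 and 2.05 in polyIC, 2.35, 2.13 and 1.96 in antiPDL1 and 1.96, 2.13 and 2.35 in combination. All 9 treated libraries, antiPDL1 replicate 2 among them, lay above the 3 control libraries, while the treated groups overlapped. With 3 libraries against 3 an exact permutation test cannot go below p = 0.10, and the difference between the classes was not tested.

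**Figure D4:**
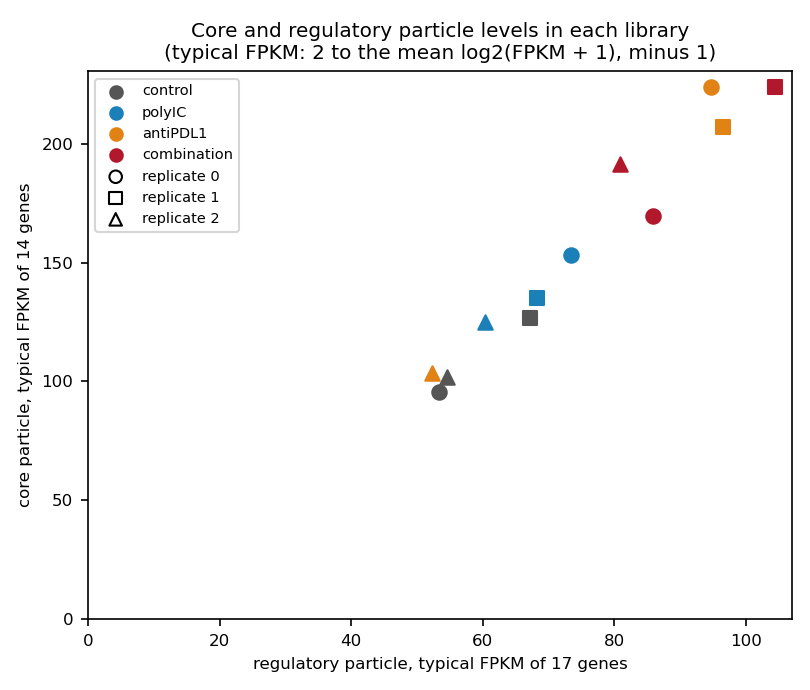
Typical FPKM (2 to the power of the mean log2(FPKM + 1), less 1) of the 14 general core genes (vertical axis) against that of the 17 regulatory genes (horizontal axis), 1 point per library, coloured by group and shaped by replicate. Libraries high in one are high in the other, and antiPDL1 replicate 2 lies with the control libraries.

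The immunoproteasome genes Psmb8, Psmb9 and Psmb10 take the places of Psmb5, Psmb6 and Psmb7. Psmb8 was at 342 ± 58.0 FPKM in control and 729.5 ± 67.2 in combination and rose by 1.10 ± 0.37 (adjusted p = 0.0445, limma), Psmb9 (1.13, adjusted p = 0.0509) and Psmb10 (1.00, adjusted p = 0.0705) did not pass. The FPKM ratio of Psmb8 to Psmb5 was 5.28 to 6.31 in control, 6.42 to 7.11 in polyIC, 6.30 to 8.58 in antiPDL1 and 6.69 to 7.91 in combination. That of Psmb9 to Psmb6 was 2.38 to 2.61, 2.77 to 3.06, 2.63 to 4.33 and 3.25 to 3.56 in the same order. That of Psmb10 to Psmb7 was 1.14 to 1.27, 0.950 to 1.21, 1.09 to 1.96 and 1.24 to 1.45. In this last ratio each treated group overlapped control, and in the ratio of Psmb8 to Psmb5 antiPDL1 did.

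Of 35 further genes of the pathway (assembly factors, other proteasome-bound proteins, regulators of subunit genes, ubiquitin and its activating enzyme, and factors that deliver substrates) 33 were tested. In combination 5 rose (15.2%, where 13.1% of all tested genes rose) and none fell, with a median log2 change of 0.27, so the share that rose was near that of all genes. Those with the largest changes were Rps27a, a ribosomal protein fused to ubiquitin (0.84, adjusted p = 0.0299), Uba1, the main ubiquitin-activating enzyme (0.64, adjusted p = 0.0273), and Uchl5, a deubiquitinase of the regulatory particle (0.59, adjusted p = 0.0240, all limma). The deubiquitinase Usp14 (0.49) and the thioredoxin-like Txnl1 (0.50), both proteasome-bound, also rose. The 5 assembly factors of the core had a median of 0.48 with none past the threshold, the 8 delivery factors 0.05 and the 4 regulators of subunit genes 0.14. None of the 4 regulators passed the threshold, and their values did not go the same way. Nfe2l1 was lower in combination (29.8, 23.9 and 19.9 FPKM) than in control (40.4, 33.7 and 30.7). Ngly1 was higher in combination (24.5, 25.5 and 26.6 FPKM) than in control (19.8, 20.6 and 21.9). Both were named after their values were seen. A higher level without overlap was found in 25.6% of all tested genes, and the share for the opposite order is not given here. Nfe2l2 (89.2, 75.0 and 59.5 FPKM in control, 82.2, 71.1 and 78.7 in combination) overlapped between the groups. So did Ddi2 (19.6, 12.7 and 11.8 FPKM in control, 17.2, 22.2 and 12.4 in combination). With polyIC or the antibody alone none of the 33 passed, and 3 (9.09%) and 5 (15.2%) had an unadjusted p under 0.05, against 22.2% and 17.0% of all tested genes.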

How the data were processed

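RNA of CD45-positive liver cells was measured in 12 libraries, 3 in each of 4 groups, grouped by the sample titles. The deposited table holds 1 FPKM value per gene and library, made with Cuffdiff on mm9 per the submitters' processing notes; the unit was read from the values, while aligner, annotation, versions and scaling were not given in the sources used here. With no read counts used, depth is relative and no counting interval was computed. The test covered the 11978 genes that reached 1 FPKM in 3 or more libraries. Before that, 22 genes listed at 0 in a whole group while every library of another reached 5 FPKM were left out as failed estimates, the Kupffer cell gene Cd5l among them. Differences in log2(FPKM + 1) were tested with limma 3.58.1 in R 4.3.3 (moderated two-sided tests, 1 fit over all libraries, group as the only term), with Benjamini-Hochberg adjusted p under 0.05; fold changes on this scale understate those of low genes. Tables were made with Python 3.11.15, pandas 2.3.3 and scipy 1.17.1, and the fit was tested on simulated data.

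The members, the lists and the tests were chosen with earlier results of these data known. Values in every library are given for the activators, the catalytic subunits, Psmd14 and, per comparison, up to 3 members of each class with the largest change among those that passed, or else the member with the smallest adjusted p; Psmb1, Psmd1 and other examples follow that rule, and Psmd11, Psmd3, Psma5 and Psmb2 were named after their values were seen. Alternatives covered the pseudocount, the filter, the scaling, the libraries in the fit, a replicate block and leaving out single libraries. Same-numbered libraries did not deviate together (4 of 18 pairs correlated above 0.1), so the numbers were not used as pairs.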

Additional observations from a re-analysis of the deposited data

How the results depend on the processing

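In combination against control, 17 members passed. The count was 11 with no filter on low values, 18 with a pseudocount of 0.1, 12 with a mean of at least 5 FPKM, 20 with quantile normalization, 24 with median-of-ratios rescaling and 24 with only the groups compared in the fit. Leaving out 1 library at a time gave 2 to 33 (2 without combination replicate 1, 33 without antiPDL1 replicate 2). Over the same runs the antiPDL1 count was 0 to 32, that of polyIC 0 to 1 and that of combination against polyIC 0 to 3, the highest value each time without antiPDL1 replicate 2 and, for polyIC, also without control replicate 2. Combination against polyIC had 5 with only the groups compared. With antiPDL1 replicate 2 and control replicate 2 both left out, chosen after seeing the data, the counts were 3 for polyIC, 31 for antiPDL1, 32 for combination and 4 for combination against polyIC. The interaction median was -0.41 without antiPDL1 replicate 2 and -0.36 without both. Combination against antiPDL1 and the interaction had 0 calls under each of these alternatives. With a replicate block 24 members passed in combination, 16 of the 17 among them, and no other comparison gained a call; 5 of the 12 libraries correlated best with their own number. Of 758 values of named genes under the alternatives 637 kept direction and side of the threshold, 93 lost and 24 gained a call, and 4 changed sign. Leaving out 1 library at a time, Psme4 in antiPDL1 ranged from -0.11 to 0.079 (0.079 without control replicate 0, 0.061 without antiPDL1 replicate 0), Psme4 in combination from -0.19 to 0.0049 (without control replicate 0), and the interaction value of Psma1 from -0.51 to 0.030 (without antiPDL1 replicate 0). The cause was not tested. Depth, known only in relative terms (0.485 to 1), and 3 libraries per group limit the precision.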

Other observations

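Among genes of proteasome assembly, Pomp, the maturation factor of the core, stood at 266, 354 and 279 FPKM in control, 372, 329 and 287 in polyIC, 613, 619 and 267 in antiPDL1 and 453, 523 and 490.3 in combination. Psmg4, a chaperone of the alpha ring, was at 52.3, 69.4 and 49.9 FPKM in control, 67.3, 55.8 and 44.9 in polyIC, 115, 106 and 44.3 in antiPDL1 and 64.8, 85.3 and 72.8 in combination. In both genes antiPDL1 replicates 0 and 1 were above every combination library, and antiPDL1 replicate 2 was at or near the lowest value of the table for that gene. Psmf1, an inhibitor of the core, lay between 9.82 and 15.6 FPKM in all 12 libraries. Pomp, Psmg4 and Psmf1 were chosen after their values were seen.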
